A study of Mus musculus with 14 samples.

Results

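The 5 genes Itm2a, Il2ra, Enpp5, Muc15 and Armcx2 were followed on 14 arrays of mouse hematopoietic progenitor cells, where 19505 gene symbols had a probe set. They were chosen by their measured values. These were higher in homozygous Polg mutant cells with the control vector than in heterozygous or wild-type cells with that vector. The set was named as lying outside the canonical targets of the transcription factor p53. None of the 5 is in a list of 22 p53 targets kept for this comparison. That list was chosen with earlier results of these data known, so absence from it is no test. Each gene had 1 probe set, and all 5 are protein-coding.

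The cells were lineage-negative bone marrow cells (HPCs) separated on an autoMACS, cultured for 48 h and then transduced with retrovirus made by GP+E86 cells. Polg encodes the catalytic subunit of the enzyme that copies mitochondrial DNA (mtDNA), and the series asks how expression differs with N-Myc and with mtDNA mutations acquired in Polg mutant cells. Hom-NMyc, Het-NMyc and WT-NMyc cells (2 arrays each) carried the MSCV-NMyc-IRES-YFP vector and had the genotypes Polg mut/mut, wt/mut and wt/wt. Hom-Ctrl (2 arrays), Het-Ctrl (3 arrays) and WT-Ctrl cells (3 arrays) had the same genotypes in that order and carried MSCV-IRES-YFP, so all groups were cultured and transduced. The vector carries N-Myc under a viral promoter, and its expression by cell type was not measured. A sort for YFP and the age and sex of the animals are not given in the labels. The labels call the arrays biological replicates, without saying whether each came from a separate animal, so the spread between them may be partly technical.

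The 5 genes encode membrane-associated proteins with separate roles. Il2ra is the alpha chain (CD25) of the interleukin-2 receptor. It raises the affinity for interleukin-2, has too short a tail to signal alone, and is best known from activated and regulatory T cells and from developing lymphocytes. Itm2a is a membrane protein with a BRICHOS domain, a fold found in several secreted or membrane precursor proteins, and is known from cartilage and from T cells. Enpp5 belongs to a family of ectoenzymes that cut pyrophosphate and phosphodiester bonds. Muc15 is a membrane-bound mucin, a heavily glycosylated surface protein. Armcx2 belongs to an X-linked family of armadillo-repeat proteins, of which Armcx3 is known on the mitochondrial outer membrane.

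Coordinates are from the RefSeq annotation of GRCm38.p6. Itm2a lies at chrX:107397195-107403360 and Armcx2 at chrX:134804142-134809221. Il2ra lies at chr2:11642792-11693194 and Muc15 at chr2:110721494-110739537, within the span of Ano3 (chr2:110655201-110950391), an overlapping gene. Enpp5 lies at chr17:44078802-44086567. Polg itself is on chromosome 7, which carries none of the 5 genes.

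RefSeq promoter sequence (250 bases before the transcript start and 50 from it on, GRCm38.p6) was at hand for 3 of the 5 genes and is shown because these genes were high in the same arrays. Capitals mark matches, on either strand, to 1 of 4 motifs that were searched: the 10-letter p53 half-site, the GATA motif AGATAA, the E-box CACGTG that MYC proteins bind with their partner MAX, and the STAT motif TTCNNNGAA. The 3 windows are chrX:107403311-107403610 (minus strand), chr2:11642542-11642841 (plus strand) and chrX:134809172-134809471 (minus strand), in the order printed.
Itm2a: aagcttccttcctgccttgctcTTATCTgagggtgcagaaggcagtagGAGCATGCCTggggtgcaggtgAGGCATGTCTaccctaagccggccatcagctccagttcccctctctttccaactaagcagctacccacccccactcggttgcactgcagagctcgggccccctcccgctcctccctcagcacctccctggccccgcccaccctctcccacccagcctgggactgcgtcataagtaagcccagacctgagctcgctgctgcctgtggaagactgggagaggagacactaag
Il2ra: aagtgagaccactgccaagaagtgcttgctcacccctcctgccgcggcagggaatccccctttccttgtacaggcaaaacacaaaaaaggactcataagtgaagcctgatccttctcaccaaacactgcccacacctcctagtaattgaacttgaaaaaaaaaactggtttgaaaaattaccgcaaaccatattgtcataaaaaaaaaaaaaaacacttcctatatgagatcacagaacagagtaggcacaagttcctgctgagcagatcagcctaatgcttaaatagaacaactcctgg
Armcx2: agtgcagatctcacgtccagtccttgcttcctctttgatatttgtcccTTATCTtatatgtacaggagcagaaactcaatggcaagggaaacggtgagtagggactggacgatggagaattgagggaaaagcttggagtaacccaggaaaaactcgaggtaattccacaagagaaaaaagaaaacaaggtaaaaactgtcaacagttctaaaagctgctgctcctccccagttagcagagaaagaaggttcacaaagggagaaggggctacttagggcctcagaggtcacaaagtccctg

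Itm2a held 2 p53 half-sites, beginning 202 and 180 bases before the start with 12 bases between them, and 1 GATA match further upstream. Of 32851 promoters of this length in the table, 8.36% held a half-site and 0.0731% held a pair at most 13 bases apart. Armcx2 held 1 GATA match, a motif found in 11.2% of these promoters, and Il2ra held none of the 4 motifs. No E-box (7.15% of promoters) or STAT match (8.3%) was present in the 3 windows. The matches to the half-site and the GATA motif did not overlap. These are matches of letters and describe the sequence only.

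The arrays were checked before the genes were read. Array medians over 22206 tested probe sets lay between 6.29 and 6.38 on the log2 scale, and pairs of arrays correlated at 0.958 to 0.994. The median of the negative control sets was 4.39 to 4.87 and their 95th percentile 7.15 to 8.00, which serve below as marks of background. Mycn read 12.15 to 12.38 on the 6 NMyc arrays. On the Ctrl arrays it read 9.77 on Hom-Ctrl replicate 1 and 7.61 on Hom-Ctrl replicate 2, against 7.50 to 7.65 in Het-Ctrl and 7.43 to 7.76 in WT-Ctrl, so Hom-Ctrl replicate 1 stood apart. The codes that the labels attach to samples fall into 3 runs, not called batches there: run 1 holds replicate 1 of the 3 Ctrl groups, run 2 holds Ctrl replicate 2 with NMyc replicate 1, and run 3 holds the remaining arrays. The Y-linked gene Eif2s3y read 3.59 to 3.96 on the 3 arrays of run 1 and 8.23 to 9.78 on the other 11, and Kdm5d and Uty split the same way. Values within a run therefore compare arrays on the same side of this split, which bears on the X-linked Itm2a and Armcx2. The levels still varied within a run. In run 3, Eif2s3y read 8.23 on Hom-NMyc replicate 2, 9.25 on WT-NMyc replicate 2 and 9.69 on WT-Ctrl replicate 3.

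In the Ctrl cells every one of the 5 genes was higher on both Hom-Ctrl arrays than on all 6 other Ctrl arrays. These are the arrays that the choice of the genes used. Of all probe sets, 8.82% showed this separation. The values below describe the choice and carry no test. The plot of levels by array shows all 14 values per gene.

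**Figure D1:**
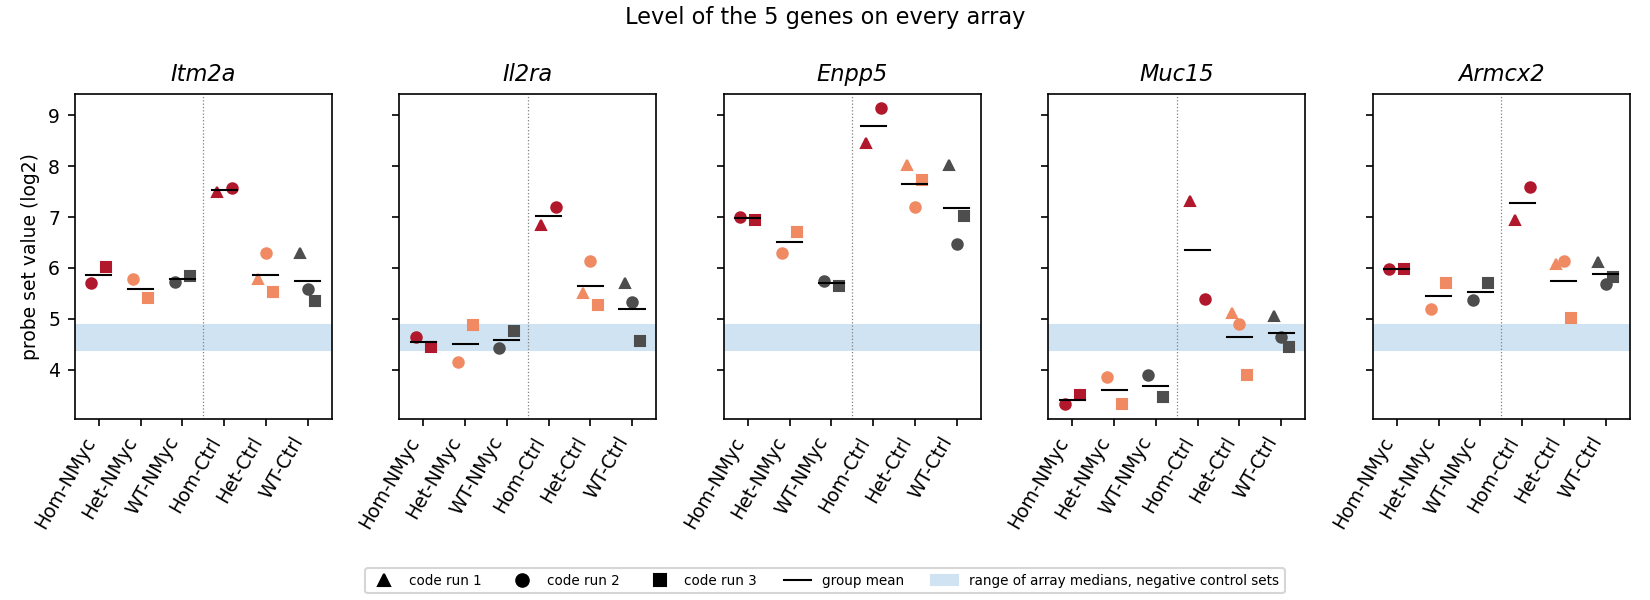
Probe set value (log2) of each gene on every array, in the 6 groups, with 2 or 3 arrays a group. Shapes give the run of sample codes, the black bar is the group mean and the blue band spans the arrays' negative control medians (4.39 to 4.87). The Hom-Ctrl arrays (dark red, right of the dotted line) were the highest Ctrl arrays for all 5 genes, and the Muc15 values of all 6 NMyc arrays lay below the band.

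Il2ra read 6.84 and 7.20 in Hom-Ctrl, against 5.50, 6.14 and 5.27 in Het-Ctrl and 5.71, 5.33 and 4.56 in WT-Ctrl. WT-Ctrl replicate 3 lay below its array's negative control median. With that array placed at its median, Hom-Ctrl exceeded WT-Ctrl by at least 1.78 on the log2 scale (3.43-fold), and it exceeded Het-Ctrl by 1.38 (2.61-fold). Even the Hom-Ctrl values stood above 91.0% and 92.6% of the negative control sets and so below the 95th percentile, which makes this a dim signal. Fewer cells of a type and less RNA per cell cannot be told apart in bulk samples such as these.

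Itm2a was the most even of the 5 genes in Hom-Ctrl, at 7.50 and 7.58, against 5.79, 6.29 and 5.53 in Het-Ctrl and 6.30, 5.59 and 5.35 in WT-Ctrl. The Hom-Ctrl mean was 7.54 ± 0.06 (SD, n = 2), above Het-Ctrl by 1.67 (3.19-fold) and above WT-Ctrl by 1.80 (3.47-fold). Het-Ctrl and WT-Ctrl overlapped, with means of 5.87 ± 0.38 and 5.75 ± 0.50 (SD, n = 3 each). Both Hom-Ctrl arrays reached the level of about the 95th percentile of the negative control sets.

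Enpp5 read 8.45 and 9.14 in Hom-Ctrl, against 8.03, 7.20 and 7.72 in Het-Ctrl and 8.02, 6.48 and 7.03 in WT-Ctrl. The gap between the lowest Hom-Ctrl array and the highest array of the other genotypes was narrow. The means differed by 1.15 from Het-Ctrl (2.21-fold) and by 1.62 from WT-Ctrl (3.07-fold). The size depended on the run. Within run 1, Hom-Ctrl exceeded Het-Ctrl by 0.42 and WT-Ctrl by 0.43, and within run 2 by 1.94 and 2.66. Without the 3 arrays of run 1 the differences were 1.68 and 2.39.

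Muc15 varied most within Hom-Ctrl, where replicate 1 read 7.31 and replicate 2 read 5.38. Het-Ctrl read 5.12, 4.90 and 3.89, and WT-Ctrl read 5.06, 4.65 and 4.45. Of these 6 values, 3 lay at or below the array's negative control median. With such arrays placed at the median, the Hom-Ctrl mean exceeded Het-Ctrl by at least 1.45 (2.74-fold) and WT-Ctrl by at least 1.47 (2.78-fold). Hom-Ctrl replicate 1, the array with the higher Mycn value, carried most of this. Without it the bounds were 0.49 from Het-Ctrl and 0.50 from WT-Ctrl.

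Armcx2 read 6.94 and 7.60 in Hom-Ctrl, against 6.07, 6.13 and 5.01 in Het-Ctrl and 6.11, 5.69 and 5.83 in WT-Ctrl. Hom-Ctrl stood above 91.8% and 95.1% of the negative control sets, and the other Ctrl arrays above 58.8% to 84.5%, a dim signal. The mean of 7.27 ± 0.46 (SD, n = 2) lay 1.53 above Het-Ctrl (2.88-fold) and 1.39 above WT-Ctrl (2.63-fold). Without Hom-Ctrl replicate 1 the difference from WT-Ctrl was 1.72, and within run 1, where all 3 arrays were low in Y-linked signal, it was 0.83. Itm2a, the other X-linked gene, differed by 1.20 from WT-Ctrl within run 1 and by 2.00 within run 2.

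Het-Ctrl and WT-Ctrl arrays overlapped for all 5 genes, with Het-Ctrl minus WT-Ctrl between -0.14 for Armcx2 and 0.47 for Enpp5.

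The NMyc arrays took no part in the choice of the genes and allowed a test of the homozygous difference. A limma model of the 6 NMyc arrays compared Hom-NMyc with the mean of Het-NMyc and WT-NMyc, and p-values were adjusted over all 22206 probe sets. None of the 5 genes passed an adjusted p of 0.05, nor did any other probe set (0% called). At an unadjusted p under 0.05, 14.1% of all probe sets (8.75% in the higher direction) and 2 of the 5 genes, Enpp5 and Armcx2, passed, both higher in Hom-NMyc. The median difference was 0.17 over the 5 genes and -0.01 over all probe sets. With a mean-dependent, robust prior for the spread, 897 probe sets (4.04%) were called, Enpp5 among them.

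Enpp5 read 7.00 and 6.95 in Hom-NMyc, against 6.29 and 6.71 in Het-NMyc and 5.75 and 5.65 in WT-NMyc. The 3 groups did not overlap, and Het-NMyc lay between the other groups. Hom-NMyc arrays above all other NMyc arrays were found in 14.6% of all probe sets. The share with all 3 groups apart was not counted. Hom-NMyc minus the mean of the other genotypes was 0.87 with SE 0.14 and a 95% interval of 0.55 to 1.19 (1.83-fold, adjusted p = 0.119). Against WT-NMyc the difference was 1.27 with SE 0.16 (2.42-fold, adjusted p = 0.0888), and it was 1.25 within run 2 and 1.30 within run 3. Against Het-NMyc it was 0.47 with SE 0.16 (adjusted p = 0.464), and Het-NMyc exceeded WT-NMyc by 0.80 with SE 0.16 (adjusted p = 0.888). With the robust prior the adjusted p was 0.00437 for the first of these comparisons and 0.000625 against WT-NMyc, where 4.48% of all probe sets were called. Across 11 alternatives the adjusted p of the first comparison ran from 0.00437 to 0.511 and its difference from 0.77 to 0.98.

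Armcx2 read 5.98 on both Hom-NMyc arrays, against 5.20 and 5.70 in Het-NMyc and 5.36 and 5.71 in WT-NMyc. These values stood above 65.3% to 84.9% of the negative control sets, so the signal was dim. Both Hom-NMyc arrays lay above the 4 others, as they did for Enpp5. This separation was found in 14.6% of all probe sets. The difference from the mean of the other genotypes was 0.49 with SE 0.17 and a 95% interval of 0.11 to 0.87 (adjusted p = 0.261). It was 0.70 within run 2 and 0.27 within run 3.

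Itm2a read 5.71 and 6.01 in Hom-NMyc, against 5.78 and 5.40 in Het-NMyc and 5.73 and 5.85 in WT-NMyc. The genotypes overlapped, and the difference was 0.17 with SE 0.15 and a 95% interval of -0.17 to 0.51 (adjusted p = 0.629). Il2ra read 4.64 and 4.45 in Hom-NMyc, against 4.15 and 4.87 in Het-NMyc and 4.42 and 4.76 in WT-NMyc. Each group had 1 of 2 arrays above the negative control median, so Il2ra was at background in all 3 NMyc groups. Its fitted difference was -0.01, with a 95% interval of -0.47 to 0.45 (adjusted p = 0.989). Muc15 read 3.32 and 3.49 in Hom-NMyc, 3.86 and 3.32 in Het-NMyc and 3.89 and 3.46 in WT-NMyc. It was below the negative control median on all 6 arrays, and no genotype difference could be measured there.

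The plot of differences within runs sets the NMyc values beside the Ctrl values that chose the genes. Since only the Ctrl differences took part in that choice, the sizes with the 2 vectors were not tested against each other. Within runs, Hom minus the mean of Het and WT was above 0 in both NMyc runs for Enpp5 (0.98 and 0.77) and Armcx2, and on both sides of 0 for Itm2a (-0.05 and 0.39). Il2ra and Muc15 are left out of these NMyc values because they read at or below background there.

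**Figure D2:**
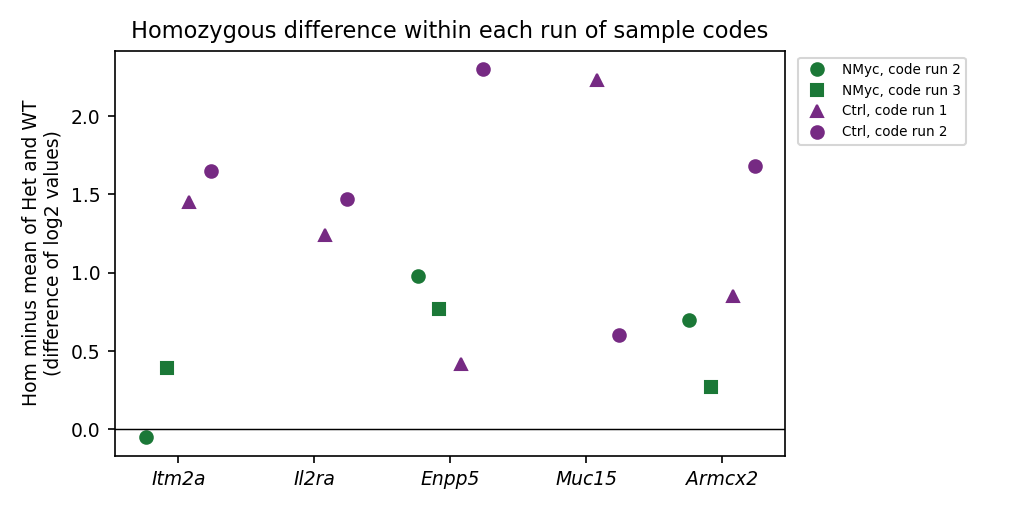
Difference of log2 values, Hom minus the mean of Het and WT, for each gene within each run of sample codes. Green symbols are NMyc arrays and purple symbols are Ctrl arrays, and each symbol compares 3 arrays. NMyc symbols are not drawn for Il2ra and Muc15, which read at or below background on those arrays. Enpp5 showed 0.98 and 0.77 with NMyc, against 0.42 and 2.30 with Ctrl, and Muc15 showed 2.23 and 0.60 with Ctrl.

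Within each genotype the NMyc values are given beside the Ctrl values with no test, because the Ctrl arrays chose the genes. Enpp5 was lower with NMyc in all 3 genotypes without overlap, with NMyc minus Ctrl at -1.82 in Hom, -1.15 in Het and -1.47 in WT. The share of all probe sets without overlap in each genotype was not counted. Averaged over genotypes, 15.5% of them were called lower with NMyc. Itm2a differed by -1.68 in Hom (5.86 ± 0.21 in Hom-NMyc against 7.54 ± 0.06 in Hom-Ctrl, SD, n = 2 each), by -0.28 in Het and by 0.04 in WT. Its arrays overlapped between vectors in Het and WT. Armcx2 differed by -1.29 in Hom, -0.29 in Het and -0.34 in WT.

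Il2ra read at background on 1 of 2 NMyc arrays in each genotype. With such arrays placed at the negative control median, it was lower with NMyc by at least 5.57-fold in Hom and 1.89-fold in Het. In WT 1 of 3 Ctrl arrays was at background too, and no fold is given. Muc15 was on all 6 NMyc arrays below all 8 Ctrl arrays, which held for 6.58% of probe sets, although the highest NMyc and the lowest Ctrl value both round to 3.89. With arrays at background placed at the negative control median, Muc15 was lower with NMyc in Hom by at least 3.78-fold, or 1.93-fold without Hom-Ctrl replicate 1, while in Het and WT both groups held arrays at background.

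Ordered by group mean, Hom-Ctrl was highest for all 5 genes and did not overlap the next group. Among the Ctrl groups this reflects the choice of the genes. Of all probe sets, 8.82% had both Hom-Ctrl arrays above all other Ctrl arrays, and the share over all 6 groups was not counted. The next mean was Het-Ctrl for Itm2a, Il2ra and Enpp5, WT-Ctrl for Muc15, and Hom-NMyc for Armcx2. For Itm2a and Armcx2 each neighbouring pair among the other 5 groups overlapped, and for Il2ra likewise. Enpp5 had separate steps at Hom-NMyc over Het-NMyc and at Het-NMyc over WT-NMyc, and Muc15 had 1 at Het-Ctrl over WT-NMyc. The share of all probe sets with such steps was not counted.

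The lists used below were chosen with earlier results of these data known, so counts of their called genes are descriptive. Relatives and partners of the 5 genes were taken from 5 lists, with 45 of 58 entries measured. Of these, 4 were higher in Hom-Ctrl than in WT-Ctrl and none lower, where 3.91% of all probe sets were called (2.03% higher). They were Itm2c, Enpp4, Muc13 and Armcx3, each from a different list. With 1 Ctrl array left out the count ran from 0, without Hom-Ctrl replicate 2, to 5, and it was 1 without Hom-Ctrl replicate 1 or WT-Ctrl replicate 3 and 2 without WT-Ctrl replicate 2 or without the arrays of run 1. Against Het-Ctrl, where 2.4% of probe sets were called (1.34% higher), Muc13 alone of the 45 was called, and 0 were without Hom-Ctrl replicate 2 or Het-Ctrl replicate 3. In Hom-NMyc 0 of the 45 were called against the mean of the other genotypes, as for all probe sets. In 2 of 12 alternatives, a filter that kept probe sets above the 95th percentile of the negative control sets on at least 2 arrays (9.64% of 8835 called) and the robust prior (4.04% called), Pim1, Enpp4 and Muc13 were called higher and Muc20 lower.

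Of 17 measured genes of the interleukin-2 receptor family and its signalling, 0 were called in Hom-Ctrl against WT-Ctrl or Het-Ctrl, with 3 higher and 4 lower at an unadjusted p under 0.05 against WT-Ctrl (17% of all probe sets in either direction). Il2rb, the beta chain that signals with the common gamma chain, read 4.45 and 4.56 in Hom-Ctrl, below the negative control medians, against 4.88, 5.02 and 4.78 in Het-Ctrl and 4.96, 5.39 and 4.94 in WT-Ctrl. With the Hom-Ctrl arrays placed at those medians, it was lower than in WT-Ctrl by at least 1.37-fold (adjusted p = 0.0509 on the values as deposited, 0.0314 to 0.255 over 12 alternatives, of which 3 called it). Socs1, a feedback inhibitor of cytokine signalling, averaged 9.94 ± 0.10 in Hom-Ctrl (SD, n = 2) against 9.19 ± 0.38 in WT-Ctrl (SD, n = 3), a difference of 0.75 (adjusted p = 0.0673, and 0.0269 to 0.236 over 13 alternatives, of which 4 called it). The median over the list was -0.09 against 0.00 for all probe sets. Il15ra, which lies 12.0 kb from Il2ra and encodes the alpha chain for interleukin-15, differed by 0.36 (adjusted p = 0.518).

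Among 9 measured BRICHOS genes, Itm2c rose in Hom-Ctrl against WT-Ctrl by 0.67 (adjusted p = 0.0353), with 10.40 ± 0.09 in Hom-Ctrl (SD, n = 2) and 9.73 ± 0.22 in WT-Ctrl (SD, n = 3). The adjusted p was 0.0597 to 0.159 without either Hom-Ctrl array or without WT-Ctrl replicate 2 or 3. Against Het-Ctrl it differed by 0.63 (adjusted p = 0.0595). Itm2b, with 12.83 ± 0.09 in Hom-Ctrl against 12.57 ± 0.14 in WT-Ctrl, did not pass (adjusted p = 0.347). The neighbours of Itm2a on the X chromosome were P2ry10b and Gpr174 on one side. P2ry10b was called against Het-Ctrl (0.90, adjusted p = 0.0137, but 0.2 without Hom-Ctrl replicate 2 and 0.0559 without Het-Ctrl replicate 3) and differed by 0.46 from WT-Ctrl (adjusted p = 0.166), and Gpr174 was called in neither. Tbx22 and Tent5d, on the other side, had group means of 3.27 to 3.89, below the negative control medians.

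Enpp4, whose gene lies 9.74 kb from Enpp5 and whose product cuts diadenosine triphosphate, read 8.08 and 8.32 in Hom-Ctrl, against 7.82, 7.46 and 7.29 in Het-Ctrl and 7.62, 7.31 and 7.56 in WT-Ctrl. It rose by 0.70 against WT-Ctrl (adjusted p = 0.0359), and the difference from Het-Ctrl was 0.68 (adjusted p = 0.055). The adjusted p against WT-Ctrl was 0.263 without Hom-Ctrl replicate 2, and 0.0655 to 0.0875 without Hom-Ctrl replicate 1 or WT-Ctrl replicate 2 or 3. In Hom-NMyc Enpp4 read 8.21 and 8.51, against 8.04 and 7.99 in Het-NMyc and 7.66 and 7.84 in WT-NMyc. Both Hom-NMyc arrays were the highest, at 0.48 above the mean of the other genotypes (adjusted p = 0.188, and 0.0269 with the robust prior). The other 2 measured family members, Enpp3 and Enpp6, were not called.

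Muc13, a membrane mucin of epithelium that is also found on blood progenitors, was the relative with the smallest p. It read 11.26 and 11.65 in Hom-Ctrl, against 10.61, 10.73 and 10.51 in Het-Ctrl and 10.54, 10.19 and 10.63 in WT-Ctrl. It rose by 1.00 with SE 0.16 against WT-Ctrl (adjusted p = 0.0039) and by 0.84 against Het-Ctrl (adjusted p = 0.0145). Without Hom-Ctrl replicate 2 these adjusted p-values were 0.0852 and 0.207, and without Het-Ctrl replicate 3 the second was 0.0641. In Hom-NMyc it read 9.83 and 9.90, against 9.07 and 8.90 in Het-NMyc and 9.11 and 9.13 in WT-NMyc, a difference of 0.82 (adjusted p = 0.119, and 8.01e-05 with the robust prior). Muc20, another mucin, read 8.06 and 8.47 in Hom-NMyc, against 9.23 and 8.98 in Het-NMyc and 8.88 and 9.09 in WT-NMyc. Its difference was -0.78, opposite in sign to that of Muc13 (adjusted p = 0.135, and 0.00126 with the robust prior). It read 8.28 and 8.53 in Hom-Ctrl, against 9.09, 9.82 and 8.70 in Het-Ctrl and 8.67, 9.66 and 8.57 in WT-Ctrl. The difference from Het-Ctrl was -0.80 (adjusted p = 0.234, called in 1 of 13 alternatives at 0.038). The remaining 7 measured mucins and sialomucins were not called between genotypes. Ano3, which overlaps Muc15, averaged 4.61 in Hom-Ctrl, against 3.64 in Het-Ctrl and 4.00 in WT-Ctrl. It was called against Het-Ctrl (adjusted p = 0.0199) at levels around background, and not without either Hom-Ctrl array or Het-Ctrl replicate 3 (0.0816 to 0.137).

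Armcx3, 42.7 kb from Armcx2, read 7.24 and 7.28 in Hom-Ctrl, against 6.73, 6.62 and 6.44 in Het-Ctrl and 6.24, 6.52 and 6.23 in WT-Ctrl. It rose by 0.93 against WT-Ctrl (adjusted p = 0.0198), and the difference from Het-Ctrl was 0.66 (adjusted p = 0.107). The adjusted p against WT-Ctrl was 0.153 without Hom-Ctrl replicate 2, 0.0735 without Hom-Ctrl replicate 1 and 0.0613 without WT-Ctrl replicate 3. In Hom-NMyc the difference was 0.65 (adjusted p = 0.255). Armcx6, which overlaps Armcx3 by position, was near background and differed by -0.09 from WT-Ctrl (adjusted p = 0.919). The median over the 7 measured genes of this family was 0.37, against 0.00 over all probe sets.

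Averaged over genotypes, 33.6% of all probe sets were called between NMyc and Ctrl (18.2% higher and 15.5% lower), and 20 of the 45 relatives were, 3 higher and 17 lower. Muc13 fell by 1.52, Armcx3 fell by 1.23 and Itm2c fell by 1.03, with adjusted p-values of 1.52e-08, 8.87e-07 and 6.31e-07. Of the interleukin-2 receptor and signalling list, 10 of 17 fell and none rose. They included Cish (-1.26), Socs3 (-1.20), Socs1 (-0.96) and Pim1 (-0.72), which are target genes of STAT factors, and the receptor chains Il4ra (-0.81) and Il7r (-0.76). Enpp4 rose by 0.30 (adjusted p = 0.0359), a call lost in 8 of 14 fits that left out 1 array (up to 0.125, without Hom-NMyc replicate 2). Armc10 rose by 0.44 and Bhlhb9 by 0.77, so the Armcx list held called genes in both directions.

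**Figure D3:**
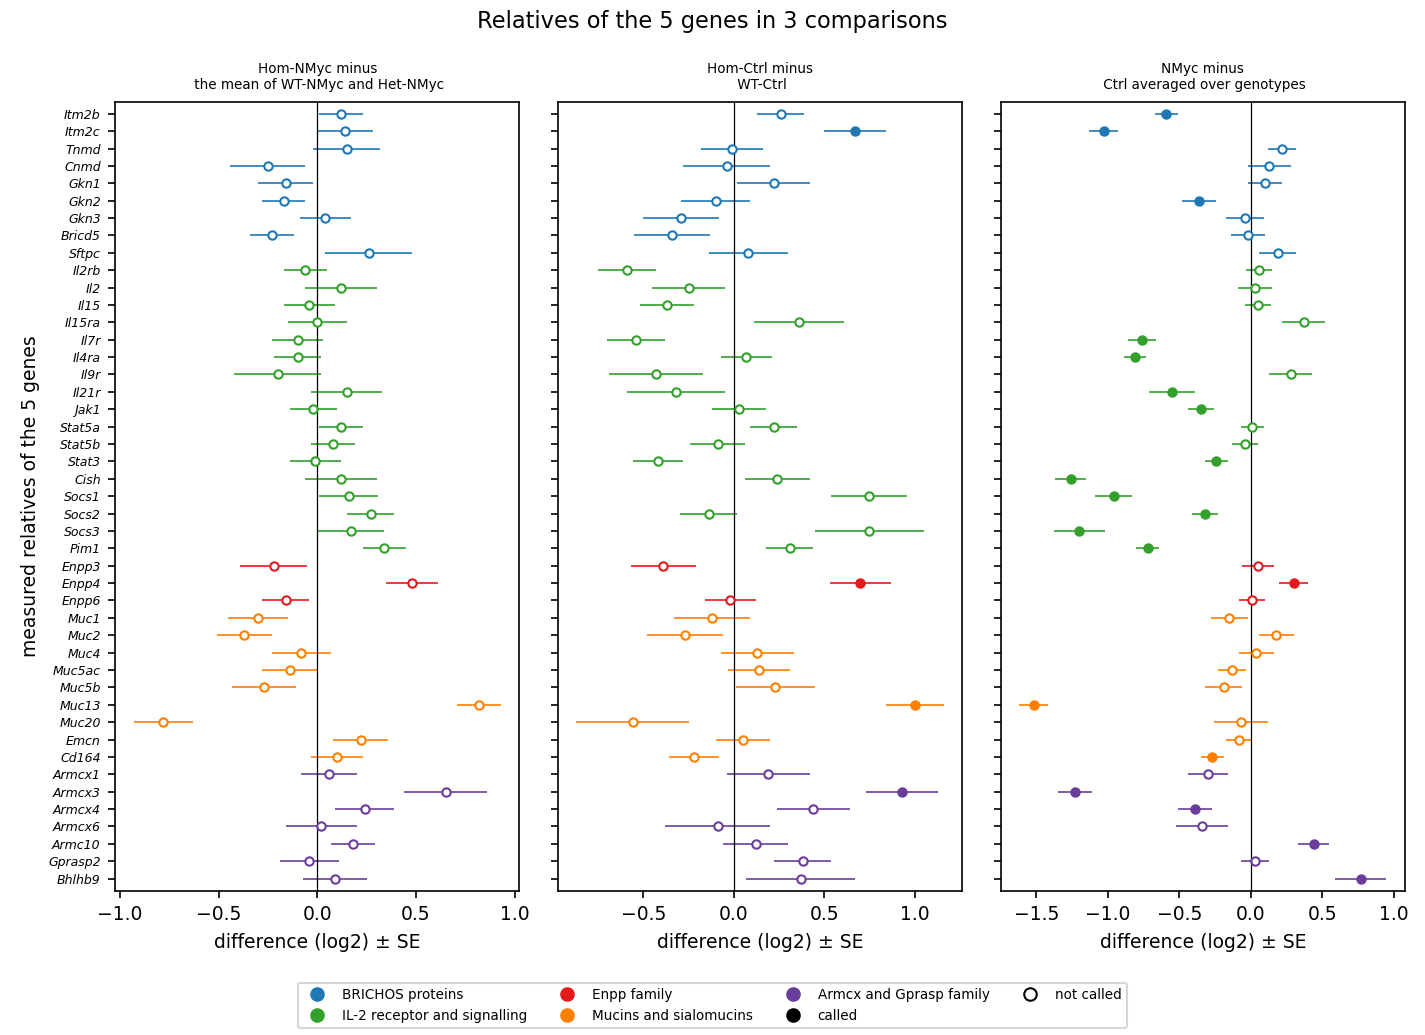
Difference (log2) with its SE for the 45 measured relatives of the 5 genes in 3 comparisons. Filled points passed an adjusted p of 0.05 and open points did not, and colours give the list. In the middle panel 4 genes were called, all higher in Hom-Ctrl, against 17 lower and 3 higher with NMyc in the right panel and 0 in the left panel.

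Markers of other cell types and the p53 targets were read on the same arrays. These lists too were chosen with earlier results known, and their counts are descriptive. Of 20 measured p53 targets, 9 were called higher in Hom-Ctrl than in WT-Ctrl (2.03% of all probe sets) and 11 higher than in Het-Ctrl (1.34%), and none lower. The other 11 and 9 did not pass. Without Hom-Ctrl replicate 2 these counts were 4 and 4, and without Hom-Ctrl replicate 1 they were 8 and 7. The summed level of a list, here and below, is the sum of its log2 values on an array and not total expression. For the p53 targets it was 176.1 to 176.5 in Hom-Ctrl, against 154.0 to 163.9 in Het-Ctrl and 158.0 to 165.5 in WT-Ctrl. It was 161.5 to 162.9 in Hom-NMyc, against 157.5 to 159.7 in Het-NMyc and 155.1 to 155.2 in WT-NMyc. In Hom-NMyc 0 of the 20 were called against the mean of the other genotypes, as for all probe sets. At an unadjusted p under 0.05, 8 were higher and 1 lower (14.1% of all probe sets in either direction). The part of the p53 targets in the values of the 5 genes was not tested.

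T lineage markers bear on Il2ra and Itm2a. Of 11 measured, Thy1 alone exceeded the 95th percentile of the negative control sets on Hom-Ctrl arrays, at 10.80 and 10.60, against 10.20, 10.16 and 9.24 in Het-Ctrl and 10.09, 9.35 and 8.02 in WT-Ctrl. It was called against WT-Ctrl (1.55, adjusted p = 0.0496), and in 4 of 5 fits without 1 array it was not (0.0706 to 0.198). The chains of the T cell receptor complex were near background, with Cd3e at 6.23 and 5.66, Cd3d at 4.91 and 5.01 and Cd3g at 5.44 and 4.90 in Hom-Ctrl, values that overlapped those of WT-Ctrl for each of these 3 genes. Cd247, another chain of the complex, read 6.97 and 6.26 in Hom-Ctrl, against 6.04, 6.30 and 6.34 in Het-Ctrl and 5.92, 6.21 and 6.21 in WT-Ctrl. It was above all WT-Ctrl arrays and overlapped Het-Ctrl (0.50 against WT-Ctrl, adjusted p = 0.229). The summed level of the list was 64.6 to 66.1 in Hom-Ctrl, against 64.3 to 65.2 in Het-Ctrl and 63.2 to 65.2 in WT-Ctrl. Of 4 measured regulatory T markers, Ikzf2 alone, which blood progenitors also express, was called against WT-Ctrl (0.79, adjusted p = 0.0356). This call was lost without either Hom-Ctrl array and without WT-Ctrl replicate 3 (adjusted p = 0.109). Ctla4 was below the negative control median on every array, and Tnfrsf18 and Tnfrsf4 overlapped WT-Ctrl. Foxp3, also in this list, was not measured. The summed level of the 4 was 31.4 to 31.5 in Hom-Ctrl against 28.7 to 30.7 in Het-Ctrl and 28.7 to 30.8 in WT-Ctrl.

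Of 10 genes listed as mast cell markers, 8 exceeded the 95th percentile on every Ctrl array, and Mcpt4 and Tpsab1 did so on none. No list of basophil markers was kept, so mast cells and basophils were not told apart. Fcer1a and Ms4a2, chains of the IgE receptor, rose in Hom-Ctrl against WT-Ctrl by 0.66 and 1.10, and the other 8 were not called (2.03% of all probe sets were called higher). Kit, the receptor for stem cell factor on mast cells and blood progenitors, read 9.54 and 9.40 in Hom-Ctrl, below all 6 other Ctrl arrays (-0.50 against WT-Ctrl, adjusted p = 0.137). Tpsab1, a mast cell tryptase, differed by -0.30 (adjusted p = 0.522). Without Hom-Ctrl replicate 2 neither Fcer1a nor Ms4a2 passed (adjusted p = 0.294 and 0.0801), and Fcer1a did not without WT-Ctrl replicate 2 or 3 (0.0773 and 0.0571). The summed level was 98.4 to 101.3 in Hom-Ctrl, against 95.7 to 98.0 in Het-Ctrl and 97.1 to 99.1 in WT-Ctrl. Of 10 neutrophil granule markers, Ltf (-1.42) and Mmp8 (-1.13) were called lower against WT-Ctrl, as were 1.88% of all probe sets. The Mmp8 call was lost without Hom-Ctrl replicate 2, which leaves 1 Hom-Ctrl array. The other 8 were not called. At an unadjusted p under 0.05, 5 of the list were lower and 1 higher. Mean Mpo was 12.25 in Hom-Ctrl and 12.24 in WT-Ctrl, and mean Elane was 12.57 and 12.59. Ctsg read 11.97 and 12.01 in Hom-Ctrl, above all 6 other Ctrl arrays. The summed level of the list was 113.0 to 114.8 in Hom-Ctrl, against 118.6 to 119.7 in Het-Ctrl and 117.7 to 118.8 in WT-Ctrl. Of 8 measured stem and progenitor markers, which check the labelled cell type, 3 to 4 exceeded the 95th percentile on the Ctrl arrays, and Gata2 was called against WT-Ctrl (0.61, adjusted p = 0.0431, and 0.0714 to 0.292 in 4 of 5 fits without 1 array). Against Het-Ctrl, Gata2 (0.64, adjusted p = 0.0425) and Meis1 (0.98, adjusted p = 0.0256) were called, Gata2 in none of 5 fits without 1 array (0.0526 to 0.307) and Meis1 in 1 of 5 (0.0545 to 0.227 in the others). Hlf, also of this list, read 5.86 and 5.95 in Hom-Ctrl, below all 6 other Ctrl arrays (-0.65 against WT-Ctrl, adjusted p = 0.0861, and -0.76 against Het-Ctrl, adjusted p = 0.0571). None of 8 B precursor markers exceeded it on any array. The summed levels of the stem and progenitor, dendritic, group 2 innate lymphoid, and stromal and endothelial lists overlapped between Hom-Ctrl and at least 1 of the other Ctrl groups. The part of these cell types in the values of the 5 genes was not tested.

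The 5 genes followed each other over the 14 arrays, with Pearson's r between pairs from 0.67 for Muc15 and Armcx2 to 0.87 for Itm2a and Armcx2. These arrays share the Hom-Ctrl group that chose the genes. After subtraction of the group means, r ran from -0.15 for Enpp5 and Muc15 to 0.65 for Il2ra and Armcx2. The named probe sets most like each gene over the 14 arrays were Gfpt1 (0.944), Cd200r4 (0.928) and Six5 (0.922) for Itm2a, and Nucb2 (0.951), Psg17 (0.946) and Sra1 (0.945) for Il2ra. For Enpp5 they were Myl12b (0.961), Dkkl1 (0.952) and Prrc1 (0.942), and for Muc15 they were Uevld (0.947), Slamf7 (0.947) and Cdc25b (0.942). For Armcx2 they were Mdm2 (0.936), Bbx (0.928) and Gla (0.924).

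Mdm2, the p53 target that encodes the ubiquitin ligase for p53, read 10.50 and 10.87 in Hom-Ctrl, against 9.79, 9.66 and 9.49 in Het-Ctrl and 9.85, 9.66 and 9.72 in WT-Ctrl. In Hom-NMyc it read 9.94 and 9.95, against 9.45 and 9.64 in Het-NMyc and 9.38 and 9.37 in WT-NMyc. Like Armcx2, it was highest on the Hom arrays with either vector. Slamf7, a surface receptor of immune cells, averaged 6.37 in Hom-Ctrl, 5.38 in Het-Ctrl and 5.58 in WT-Ctrl, and 3.87 to 4.07 in the NMyc groups, below background as Muc15 was.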

How the data were processed

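RNA of the 14 samples was hybridised to Affymetrix whole-transcript arrays. The deposited table holds log2 values of the authors, from Affymetrix Expression Console according to the submitters' processing notes. Its version, normalization and summary method are not given in the sources. The values themselves show the log2 scale. Of 28846 probe sets, 6640 control sets were left out. Symbols came from the platform annotation (19572 of the 22206 tested sets; 2634 are unnamed). No further scaling was applied.

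The 5 genes and the lists were chosen with earlier results of these data known. Genotype differences with NMyc were therefore tested on the 6 NMyc arrays alone, with limma 3.58.1 in R 4.3.3 (lmFit, eBayes; 3 residual and 5.32 prior degrees of freedom). Comparisons that involve Ctrl arrays used all 14 (8 residual, 7.3 prior), for genes other than the 5. Counts of called list genes there are not independent of the earlier results. Tests were two-sided. Adjustment was by Benjamini and Hochberg over the 22206 sets, and an adjusted p under 0.05 is a call. Errors are SD over arrays or the model's SE. Bounds put arrays at or below the negative control median at that median, in the dim group and per array. On simulated data with 200 sets changed by 1.5 (log2), the fits recovered 85.5% (NMyc arrays) and 92.5% (Hom-Ctrl minus WT-Ctrl), with 6 and 10 false calls. That change exceeds every NMyc genotype difference of the 5 genes (at most 1.27), and recovery of smaller changes was not simulated. Named were the 5 genes, Mycn, list members called, with the 4 smallest p or the 3 highest levels, the 3 symbols most correlated with each gene, 2 neighbours on each side, and sex-linked genes. Precision is limited by the number of arrays.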

Additional observations from a re-analysis of the deposited data

How the results depend on the processing

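In 11 alternatives none of the 5 genes was called between genotypes with NMyc, except Enpp5 with the trend and robust prior (0.87 against the mean of the other genotypes and 1.27 against WT-NMyc, sizes unchanged). The filter on dim probe sets (above the 95th percentile of the negative control sets on at least 2 arrays) could not be applied to them, since 0 of the 5 genes passed it on the NMyc arrays. Small differences changed sign. For Il2ra, Hom-NMyc minus the mean of the others was 0.04 and Hom-NMyc minus WT-NMyc 0.00 with quantile normalization. With 1 array left out at a time, Il2ra ranged from -0.19 to 0.17 (Hom-NMyc minus the mean), -0.22 to 0.12 (minus WT-NMyc), -0.33 to 0.39 (minus Het-NMyc) and -0.44 to 0.28 (Het-NMyc minus WT-NMyc), Itm2a from -0.08 to 0.23 (Hom-NMyc minus WT-NMyc), Muc15 from -0.45 to 0.09 (Hom-NMyc minus Het-NMyc) and -0.36 to 0.19 (Het-NMyc minus WT-NMyc), and Armcx2 from -0.33 to 0.16 (Het-NMyc minus WT-NMyc). Itm2a, WT-NMyc minus WT-Ctrl, ranged from -0.15 to 0.32. The counts of called sets, 0 in each NMyc genotype comparison, were 852, 877 and 24 with the dim filter and 897, 995 and 118 with the trend and robust prior for Hom-NMyc minus the mean, minus WT-NMyc and minus Het-NMyc. They ranged from 0 to 2 (minus WT-NMyc) with 1 array left out. Hom-Ctrl minus WT-Ctrl had 868 calls, against 442 with only AFFX sets left out, 182 with only the groups compared in the fit, and 99 to 928 with 1 array left out, the lowest without Hom-Ctrl replicate 2. Hom-Ctrl minus Het-Ctrl had 533, against 892 with the dim filter, 884 with the trend and robust prior, 231 with only AFFX sets left out, 216 with only the groups compared and 354 without the arrays of run 1 (chosen after seeing the data), and 55 to 426 with 1 array left out, again the lowest without Hom-Ctrl replicate 2. Apart from what each alternative changes by construction, the cause was not tested. The labels do not say that replicate numbers pair arrays. Deviations of same-numbered arrays from the group means correlated at 0.026 to 0.266, all positive but not all above 0.1, and no block was used in the comparisons above. With the replicate block the NMyc genotype comparisons kept 0 calls and the Ctrl ones had 653 and 449. With the run as a block they had 984 and 636.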
